A study of Homo sapiens with 8 samples.

Results

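The proteasome is counted here by the protein-coding genes of the PSMA, PSMB, PSMC, PSMD, PSME, PSMF and PSMG families, chosen by symbol alone and required to have at least 1 read in 1 of 8 libraries. Of 60664 annotated genes in the table, 48 had such a symbol and 46 of those had at least 1 count, while PSMA2 and PSMA3 were at 0 in all 8 libraries. The 46 members were divided into 5 inducible subunits, PSMB8, PSMB9, PSMB10, PSME1 and PSME2, and 41 other subunits.

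The libraries were made from A549, an established lung adenocarcinoma cell line with the labelled type of alveolar basal epithelial cell. All samples came from this 1 line. Cells were left untreated, treated with interferon gamma (IFN-γ) alone, treated with AX0085 alone, or treated with both, with 2 libraries in each group. IFN-γ was added at 20 ng according to the labels, AX0085 followed 24 h later at 0.5 μM, and cells were collected after another 24 h. AX0085 is a synthetic kinase inhibitor, and the comparisons addressed what IFN-γ changed and how further addition of AX0085 altered it.

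The 26S proteasome is the barrel-shaped protease that degrades ubiquitin-tagged proteins. Its 20S core is built of alpha rings that gate the entrance and beta rings that hold the active sites in PSMB5, PSMB6 and PSMB7, and its 19S cap of PSMC ATPases and PSMD subunits receives, unfolds and feeds in the substrate. In cells stimulated by IFN-γ, the alternative catalytic subunits PSMB8, PSMB9 and PSMB10 replace PSMB5, PSMB6 and PSMB7 in newly built cores, and PSME1 with PSME2 forms the PA28 activator that caps them. This immunoproteasome is known for producing peptides suited to presentation by MHC class I molecules, and interferon acts on such genes through STAT and IRF factors, which bind GAS and ISRE sequences.

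Total counts ranged from 20672828 to 29978251 per library, so that 3 counts, the floor used here, equalled 0.1 to 0.145 CPM, which are counts scaled to a common library total. These CPM values were scaled by trimmed mean of M values (TMM) factors of 0.916 to 1.04. Mitochondrial genes took 1.71% to 5.73% of counts. KRT8 and KRT18 were read abundantly in all libraries, whereas PTPRC had at most 1 count and CD3E had 0. Summed leukocyte markers (5 genes) stood at 0.201 to 0.211 CPM in the IFN-γ libraries and at 3.65 to 6.8 CPM in the other 6 libraries, where CD14 had most of these counts. Summed fibroblast and endothelial markers (6 genes) stood at 2.97 to 4.38 CPM with IFN-γ and 6.94 to 11.1 CPM elsewhere. The difference in the leukocyte sum came mainly from CD14, with 158 and 147 counts untreated and 1 and 4 with IFN-γ. Leukocyte content was not tested. Epithelial markers summed to 8780 to 9510 CPM untreated, 5710 to 6040 with AX0085, 6500 to 7390 with IFN-γ and 7200 to 7280 with both. With IFN-γ 4 of the 5 epithelial markers fell (adjusted p below 0.05, log2 fold change below -1), against 17.2% of all tested genes. Among them was EPCAM, from 103 and 81 counts to 9 and 7. The other, KRT7, rose from 2397 and 2669 to 4516 and 3937 CPM. In bulk RNA of 1 line, fewer cells that express a marker and less of its RNA per cell cannot be told apart. The labels do not say whether the 2 libraries of a group came from separate cultures, so all p-values measure the spread between these libraries alone.

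Promoter windows of the 5 inducible genes are shown because interferon-stimulated factors act at such sequences. The RefSeq windows run from 250 bases before to 50 bases after the annotated start, on GRCh38.p14, and are written 5′ to 3′ on the strand of the gene. Capitals mark matches, on either strand, to GAAA followed by 2 bases of any kind and a repeat of GAAA (ISRE), or to TTCNNNGAA (GAS). PSMB8 (chr6:32843998-32844297, minus strand) held both motifs, PSMB10 (chr16:67936801-67937100, minus strand), PSME1 (chr14:24135944-24136243, plus strand) and PSME2 (chr14:24146561-24146860, minus strand) held ISRE letters, and PSMB9 (chr6:32853942-32854241, plus strand) held neither. PSMB4 (chr1:151399323-151399622, plus strand) is printed last as a constitutive subunit with ISRE letters.
PSMB8: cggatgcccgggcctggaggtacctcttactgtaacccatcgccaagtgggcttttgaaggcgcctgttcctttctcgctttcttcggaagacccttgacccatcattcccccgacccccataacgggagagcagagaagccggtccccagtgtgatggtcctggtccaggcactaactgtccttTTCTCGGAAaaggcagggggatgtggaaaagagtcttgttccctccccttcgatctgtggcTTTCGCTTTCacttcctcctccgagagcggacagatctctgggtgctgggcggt
PSMB9: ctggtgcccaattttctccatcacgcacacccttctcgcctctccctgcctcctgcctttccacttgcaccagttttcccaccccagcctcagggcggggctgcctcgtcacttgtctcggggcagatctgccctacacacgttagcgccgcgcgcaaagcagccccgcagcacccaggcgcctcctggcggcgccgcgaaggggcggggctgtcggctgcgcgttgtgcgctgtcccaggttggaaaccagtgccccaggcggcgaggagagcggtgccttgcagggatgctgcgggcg
PSMB10: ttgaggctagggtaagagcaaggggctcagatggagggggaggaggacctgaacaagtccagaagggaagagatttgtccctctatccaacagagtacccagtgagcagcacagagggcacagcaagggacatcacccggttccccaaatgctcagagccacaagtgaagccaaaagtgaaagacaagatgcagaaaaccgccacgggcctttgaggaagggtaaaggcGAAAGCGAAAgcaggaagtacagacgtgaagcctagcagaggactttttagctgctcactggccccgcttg
PSME1: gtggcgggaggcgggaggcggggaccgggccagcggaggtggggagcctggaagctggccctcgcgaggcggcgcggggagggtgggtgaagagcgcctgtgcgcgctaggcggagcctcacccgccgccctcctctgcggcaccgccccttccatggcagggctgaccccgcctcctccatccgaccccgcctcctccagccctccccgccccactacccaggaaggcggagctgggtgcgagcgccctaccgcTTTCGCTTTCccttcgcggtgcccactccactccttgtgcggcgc
PSME2: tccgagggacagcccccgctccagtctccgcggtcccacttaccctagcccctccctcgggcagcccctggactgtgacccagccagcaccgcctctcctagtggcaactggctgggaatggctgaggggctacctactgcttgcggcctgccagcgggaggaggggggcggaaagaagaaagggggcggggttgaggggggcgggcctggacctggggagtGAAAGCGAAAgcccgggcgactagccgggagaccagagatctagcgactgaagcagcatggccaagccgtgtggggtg
PSMB4: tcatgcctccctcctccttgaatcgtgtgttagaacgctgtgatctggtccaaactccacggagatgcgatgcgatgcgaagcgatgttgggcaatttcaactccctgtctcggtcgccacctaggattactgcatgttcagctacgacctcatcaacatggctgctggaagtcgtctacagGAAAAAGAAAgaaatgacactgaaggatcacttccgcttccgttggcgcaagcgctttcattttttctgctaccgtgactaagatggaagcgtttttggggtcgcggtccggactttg

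ISRE letters occurred in 4 of the 5 inducible genes and in 3 of the 37 other genes that had a window, namely PSMA4, PSMB4 and PSMG4. Some genes had more than 1 window. By window, ISRE letters occurred in 66.7% of the 6 inducible windows and 6.67% of the 45 other windows, against 3.57% of all 35116 RefSeq windows. The first base of the match lay at -4 in PSMB8, -21 in PSMB10, 6 in PSME1 and -28 in PSME2, counted from the start. In the other genes it lay at -240 in PSMA4, -68 in PSMB4 and -33 in PSMG4. GAS letters were found in PSMB8 among the inducible genes, at -65, and in PSMA2, PSMA8, PSMB5, PSMC4, PSMD2, PSMD3 and PSME3, against 7.66% of all windows. TGACNNNGC, the core of the antioxidant response element through which NFE2L1 raises proteasome genes, occurred in PSMB9, PSME1 and PSME2 and in 12 other members, against 13.3% of all windows. CCAAT was present in PSMB9 and in 19 other proteasome genes, against 34.6% of all windows. A second RefSeq window of PSMB8 held neither interferon motif. PSMA4, PSMB5 and PSMD2 likewise had more than 1 window, and their letters were absent from at least 1 of them. PSMA7, PSMB1, PSMB6, PSMB7, PSMD4 and PSMG3 were not matched to a window. These matches are descriptions of letters in a window, not sites shown to be bound.

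IFN-γ raised all 5 inducible subunits past both thresholds used here (adjusted p below 0.05, change larger than 1 on the log2 scale), where 10.3% of all tested genes were called higher. PSMB9 (ENSG00000240065), which replaces PSMB6, had 334 and 257 counts untreated (11.1 and 10.5 CPM) and 6545 and 7354 counts with IFN-γ (346 and 296 CPM). Its log2 fold change was 4.89 (SE 0.09, adjusted p = 2.52e-13, edgeR quasi-likelihood test with Benjamini-Hochberg adjustment over 15066 genes), or 29.7-fold. PSMB10 (ENSG00000205220), which replaces PSMB7, went from 69 and 73 counts (2.28 and 2.97 CPM) to 1203 and 1334 counts (63.5 and 53.6 CPM). This was 22.4-fold, with a log2 fold change of 4.49 (SE 0.14, adjusted p = 1.96e-11). PSMB8 (ENSG00000204264), which replaces PSMB5, went from 449 and 391 counts (14.9 and 15.9 CPM) to 5388 and 6028 counts (285 and 242 CPM), a log2 fold change of 4.10 (SE 0.09, adjusted p = 7.35e-13) or 17.1-fold. All 3 catalytic genes rose from per-length levels among the lowest of the complex, and no treated library overlapped an untreated one.

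The PA28 genes started higher and rose less. PSME1 (ENSG00000092010) had 97.3 and 109.5 CPM untreated and 495 and 444 CPM with the cytokine (log2 fold change 2.18, SE 0.08, adjusted p = 4.6e-11), 4.54-fold. PSME2 (ENSG00000100911) had 102 and 112 CPM untreated and 596 and 493 CPM with it (log2 fold change 2.35, SE 0.09, adjusted p = 9.85e-11), 5.1-fold. Both activator genes were separated from the untreated libraries by several times the spread within a group.

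**Figure D1:**
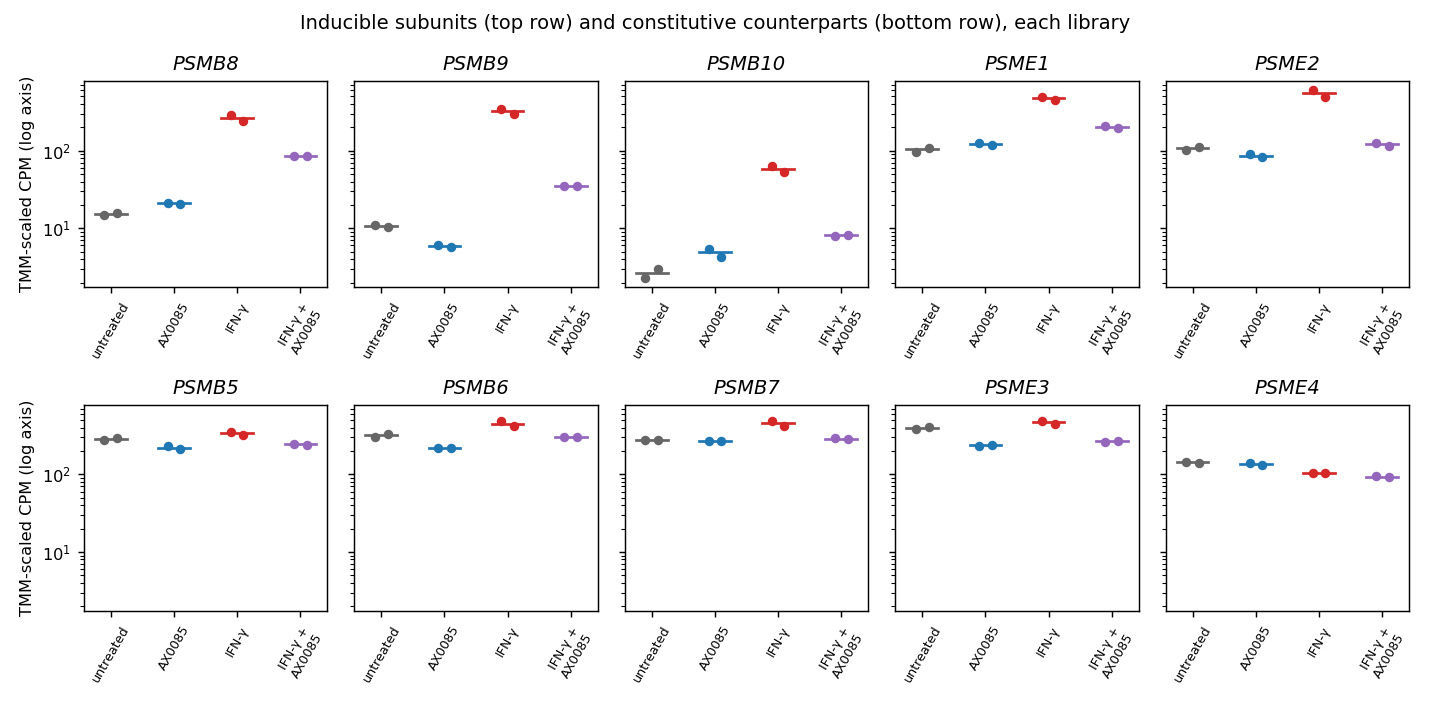
TMM-scaled CPM (log axis) of the 5 inducible subunits (top row) and 5 constitutive counterparts (bottom row), 1 point per library and a bar at the mean of 2 libraries per group. PSMB9 stands at 346 and 296 CPM with IFN-γ against 34.8 CPM in each library with both agents, whereas PSMB5 stays between 210.2 and 353 CPM in all 8 libraries.

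IFN-γ moved few of the constitutive subunits past both thresholds. Of the 38 other subunits that passed the low-count filter, 1 was called higher and 1 lower, against a background of 10.3% higher and 17.2% lower. By adjusted p alone, 20 of the 38 rose (52.6%, background 32.1%), 10 fell (26.3%, background 36.0%) and 8 did not pass. Their median log2 fold change was 0.23, beside -0.06 for all genes tested. With libraries scaled by total count alone, 14 rose and 11 fell, and the median of all genes moved from -0.06 to -0.18. The inducible subunits had a median of 4.10.

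The other catalytic subunits rose a little. PSMB7 went from 278 and 278 CPM to 482 and 424 CPM (log2 fold change 0.70, SE 0.06, adjusted p = 4.3e-07). PSMB6 went from 306 and 332 to 481 and 419.5 CPM (0.50, SE 0.07, adjusted p = 2.77e-05), and PSMB5 from 273 and 289.8 to 353 and 318 CPM (0.25, SE 0.07, adjusted p = 0.00424). So the 3 constitutive active-site genes were not lowered at the RNA level while their alternatives rose. Among the structural beta subunits PSMB1 rose (0.34) and PSMB4 fell (-0.53), from 248 and 274 to 193 and 168 CPM. The 3 other subunits with ISRE letters did not move alike, as PSMB4 fell, PSMA4 rose by 0.79 and PSMG4 did not pass the test (0.13). Whether these letters bear on the changes was not tested.

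The called riser outside the inducible set was PSMG3, a chaperone that helps assemble the 20S core. It had 46.2 and 46.8 CPM untreated and 115 and 101.4 CPM with IFN-γ (log2 fold change 1.22, SE 0.07, adjusted p = 7.06e-09). Its partner chaperone PSMG4 did not pass the test (0.13, SE 0.10, adjusted p = 0.266), and PSMG2 fell by 0.69 (SE 0.10, adjusted p = 2.55e-05). In the alpha ring PSMA4 rose by 0.79 (SE 0.07, adjusted p = 3.42e-07), from 325 and 345 to 624 and 538 CPM. PSMA8, a subunit known from testis, was called lower and is treated separately.

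In the 19S cap, 3 of 6 ATPases rose and 1 fell by adjusted p, from PSMC3 (0.47) to PSMC5 (-0.18). Of 11 non-ATPase subunits, 7 rose and 3 fell. Over all genes 32.1% rose and 36.0% fell, so the falls in the cap were no more frequent than in the background. PSMD7, the scaffold partner of the deubiquitinase PSMD14, rose most (0.80, SE 0.06, adjusted p = 4.98e-08), from 107 CPM in both untreated libraries to 192 and 182 CPM. PSMD12, a lid subunit, fell most (-0.49). The 19S assembly chaperone PSMD10 fell by 0.58 (SE 0.07, adjusted p = 1.16e-05), and PSMD5, another of this class, had a log2 fold change of 0.02 (SE 0.06, adjusted p = 0.774). The remaining activators moved apart, as PSME3 rose by 0.25 (SE 0.06, adjusted p = 0.00205) and PSME4, the PA200 activator, fell by 0.46 (SE 0.06, adjusted p = 6.64e-06). PSMF1, an inhibitor of the 20S core, rose by 0.43 (SE 0.06, adjusted p = 3.29e-05). Leaving out PSMA8 and 5 members with over 50% of their exon bases inside other gene spans left 19 risers and 6 fallers among 32, with a median of 0.26.

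**Figure D2:**
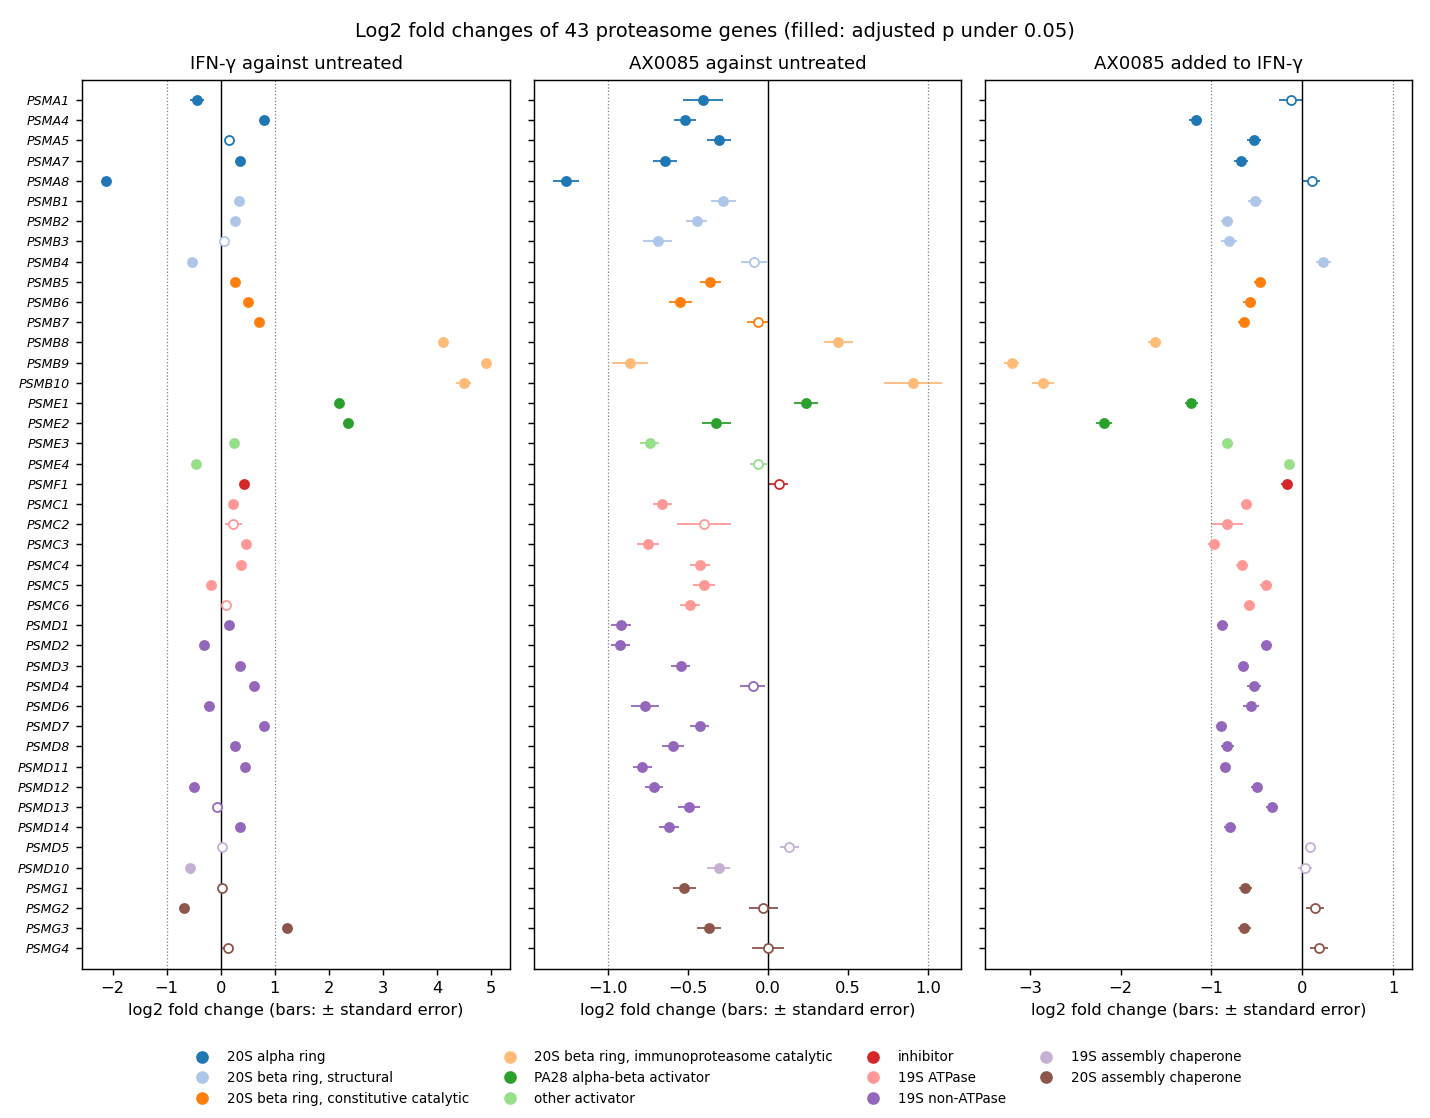
Log2 fold changes of the 43 tested members in 3 comparisons (edgeR fit, bars ± standard error), coloured by role and filled where the adjusted p was under 0.05, with dotted lines at 1 and -1. The inducible subunits lie between 2.18 and 4.89 with IFN-γ, while the AX0085 panel has 29 of 38 other subunits lower and none higher.

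AX0085 alone lowered most constitutive subunits by a small amount and moved the inducible subunits in both directions. Of the 38 other subunits, 29 fell by adjusted p (76.3%, background 26.6%), none rose, and 9 did not pass. The count of risers was 0 with edgeR and with DESeq2, and 1, PSMD5 (0.13), at an unadjusted p under 0.05. The median was -0.47 beside 0.01 for all genes tested. By both thresholds 1 of the 38, PSMA8, was called lower and 0 higher, against 5.62% and 6.41% of all genes.

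Apart from PSMA8, the 2 strongest falls among constitutive subunits under AX0085 were in the 19S cap. PSMD2, a base scaffold that docks shuttle proteins, went from 434 and 449 CPM to 237 and 229.8 CPM (-0.92, SE 0.06, adjusted p = 4.32e-08). PSMD1, the other base scaffold, went from 318 and 336 to 179 and 168 CPM (-0.91, SE 0.06, adjusted p = 8.44e-08). By adjusted p, 10 of the 11 non-ATPases fell, and 5 of the 6 ATPases fell, the latter led by PSMC3 (-0.75). Over all genes 26.6% fell. The core was lowered less evenly. PSMB6 fell from 306 and 332 to 220.1 and 217 CPM (-0.55, SE 0.07, adjusted p = 2.44e-05), PSMB5 from 273 and 289.8 to 228.5 and 210.2 CPM (-0.36, SE 0.07, adjusted p = 0.00057), and PSMB7, at 267 and 265 CPM against 278 and 278 untreated, did not pass (adjusted p = 0.414). PSME3 fell from 387 and 402 to 234 and 239 CPM (-0.74), whereas PSME4 did not pass (-0.06, SE 0.05, adjusted p = 0.38).

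Within the inducible set, AX0085 alone gave 3 rises and 2 falls by adjusted p (backgrounds 26.7% higher and 26.6% lower), none past a log2 fold change of 1. PSMB9 fell from 11.1 and 10.5 to 6.09 and 5.76 CPM (-0.86, SE 0.11, adjusted p = 2.72e-05). PSMB10 rose from 2.28 and 2.97 to 5.46 and 4.29 CPM (0.90, SE 0.18, adjusted p = 9.61e-04) and PSMB8 from 14.9 and 15.9 to 21.4 and 20.3 CPM (0.44, SE 0.09, adjusted p = 0.00138). PSMB9 and PSMB8, neighbours on chromosome 6, thus moved in opposite directions. Without untreated replicate 2 the change of PSMB10 was 1.09, and without AX0085 replicate 2 it was 1.07, past the fold threshold in each case. PSME1 rose by 0.24 (SE 0.07, adjusted p = 0.0172) and PSME2 fell by 0.32 (SE 0.09, adjusted p = 0.00788), so the PA28 genes also parted.

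Adding AX0085 to IFN-γ lowered all 5 inducible subunits past both thresholds, where 8.28% of all genes were called lower. This comparison has the IFN-γ libraries in common with the comparison of IFN-γ against untreated cells. PSMB9 dropped from 346 and 296 CPM with IFN-γ to 34.8 CPM in each library with both agents, 9.2-fold lower (log2 fold change -3.20, SE 0.08, adjusted p = 3.44e-12). PSMB10 dropped from 63.5 and 53.6 to 7.93 and 8.23 CPM, 7.25-fold lower (-2.86, SE 0.12, adjusted p = 3.54e-10). PSME2 dropped from 596 and 493 to 124 and 116 CPM, 4.54-fold lower (-2.18, SE 0.09, adjusted p = 2.52e-10). The falls of PSMB8 and PSME1 were the smaller ones. PSMB8 went from 285 and 242 to 85.6 and 84.9 CPM (-1.63, SE 0.08, adjusted p = 8.33e-10), and PSME1 from 495 and 444 to 206 and 197 CPM (-1.22, SE 0.07, adjusted p = 9.7e-09). The libraries of the groups did not overlap for any of the 5 genes.

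The constitutive subunits fell too, by less. By adjusted p, 31 of 38 fell (81.6%, background 32.8%), 1 rose (2.63%, background 33.7%) and 6 did not pass, with a median of -0.58 beside 0.03 for all genes. Scaled by total count alone, 29 fell and 5 rose, and the median of all genes moved from 0.03 to 0.16. Past both thresholds 1 was called lower, against 8.28%, and 0 were called higher, against 16.5%. The latter count was also 0 with DESeq2, and 1 rose at an unadjusted p under 0.05. The called gene was PSMA4, an alpha-ring subunit, which went from 624 and 538 to 257 and 258 CPM (-1.17, SE 0.07, adjusted p = 1.06e-08). Leaving out IFN-γ replicate 2, 3 other subunits were called lower, the others being PSMC3 (-1.07) and PSMC2 (-1.05).

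All 6 ATPases and all 11 non-ATPases of the 19S cap fell by adjusted p, against 32.8% of all genes. PSMC3, an ATPase of the base ring, went from 344 and 299 to 167 and 162 CPM (-0.97, SE 0.07, adjusted p = 3.61e-08), and PSMD7 from 192 and 182 to 102 and 99.6 CPM (-0.89, SE 0.06, adjusted p = 2.38e-08). All 3 constitutive catalytic genes fell, PSMB7 by 0.65 (SE 0.06, adjusted p = 1.18e-06), PSMB6 by 0.58 (SE 0.07, adjusted p = 7.63e-06) and PSMB5 by 0.46 (SE 0.07, adjusted p = 4.36e-05). With both agents they stood at 288 to 289.9 CPM for PSMB7, 298 to 304 CPM for PSMB6 and 239.7 to 247 CPM for PSMB5. PSME3 fell by 0.82 (SE 0.06, adjusted p = 5.56e-08) and PSME4 by 0.15 (SE 0.06, adjusted p = 0.0304). The riser was PSMB4, from 193 and 168 to 211 and 213 CPM (0.23, SE 0.08, adjusted p = 0.0219). Neither 19S assembly chaperone passed the test, at 0.08 for PSMD5 and 0.03 for PSMD10.

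The effect of AX0085 in the presence of IFN-γ was set against its effect without IFN-γ by an interaction term, which is the difference of the log2 fold changes. For the 5 inducible subunits the term was -3.76 for PSMB10 (SE 0.22, adjusted p = 2.77e-08), -2.34 for PSMB9 (SE 0.14, adjusted p = 3.61e-08), -2.07 for PSMB8 (SE 0.12, adjusted p = 2.75e-08), -1.86 for PSME2 (SE 0.12, adjusted p = 9.67e-08) and -1.46 for PSME1 (SE 0.10, adjusted p = 1.89e-07). All 5 were called lower, against 6.46% of all genes. For PSMB8, PSMB10 and PSME1 the direction itself differed, as AX0085 raised them in cells without IFN-γ and lowered them in cells with it.

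Most constitutive subunits did not pass the interaction test. Of 38, 25 did not pass, 8 had a negative term by adjusted p (21.1%, background 23.6%) and 5 a positive one (13.2%, background 26.7%), with a median of -0.09 beside 0.05 for all genes. PSMD1 is an example, at -0.91 without IFN-γ and -0.88 with it (term 0.03, SE 0.09, adjusted p = 0.764). PSMB6 is another, at -0.55 and -0.58 (term -0.03, SE 0.10, adjusted p = 0.795). A p that misses the threshold does not show that the effects were equal. The negative terms included PSMA4 (-0.66, SE 0.10, adjusted p = 1.21e-04), PSMB7 (-0.58, SE 0.09, adjusted p = 1.45e-04) and PSMD7 (-0.46, SE 0.08, adjusted p = 4.68e-04). PSMD2 had a term of 0.52 (SE 0.08, adjusted p = 1.52e-04), falling by 0.92 without IFN-γ and by 0.40 with it. By both thresholds PSMA8 alone was called, with a positive term of 1.36, against 12.1% of all genes.

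Read the other way, the response to IFN-γ was smaller in cells that then received AX0085. With AX0085 in both arms, the fold of IFN-γ was 5.88 for PSMB9, 4.09 for PSMB8, 1.66 for PSMB10, 1.66 for PSME1 and 1.41 for PSME2, in place of 29.7, 17.1, 22.4, 4.54 and 5.1 without it. All 5 rose by adjusted p (background 17.3%), and PSMB8 and PSMB9 rose past both thresholds (background 1.79%). Of the 38 other subunits 13 rose (background 17.3%) and 5 fell (background 17.4%) by adjusted p, led by PSMG3 (0.95, SE 0.07, adjusted p = 1.75e-06). By both thresholds 0 of them were called in either direction with edgeR or DESeq2, against 1.79% higher and 1.73% lower, while 16 rose and 7 fell at an unadjusted p under 0.05.

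The inducible subunits differed in how far above untreated cells they stood with both agents. PSMB8 remained 5.54-fold above untreated (2.47, SE 0.09, adjusted p = 2.04e-10), PSMB9 3.23-fold (1.69, SE 0.09, adjusted p = 6.65e-09) and PSMB10 3.1-fold (1.63, SE 0.17, adjusted p = 2.62e-06), and these 3 were called (background 7.51%). PSME1 remained 1.95-fold above (0.96, SE 0.07, adjusted p = 1.93e-07), just under the fold threshold, with 206 and 197 CPM against 97.3 and 109.5 CPM untreated. Without untreated replicate 2 its change was 1.05 and without IFN-γ replicate 2 it was 1.004, past that threshold in each case. PSME2 was at 124 and 116 CPM against 102 and 112 CPM untreated, which did not pass (0.17, SE 0.09, adjusted p = 0.115). Expressed as a share of the IFN-γ log2 change, AX0085 took away 92.8% for PSME2, 65.4% for PSMB9, 63.7% for PSMB10, 55.9% for PSME1 and 39.7% for PSMB8. This share includes what AX0085 did without IFN-γ, so its order is not that of the interaction terms. Without IFN-γ the AX0085 change was -0.32 for PSME2, -0.86 for PSMB9, 0.90 for PSMB10, 0.24 for PSME1 and 0.44 for PSMB8. Of the other 38 subunits, 29 were below untreated by adjusted p with both agents (background 28.8%) and 3, PSMF1, PSMG3 and PSMG4, were above (background 28.1%). Past both thresholds 1 was lower, PSMA8, against 7.23% of all genes.

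Levels of different genes were compared only after division by the exon length of each gene. On that scale (CPM per kb of exon) PSMB6 was the highest of the 48 genes in all 4 groups, at 221 untreated and 311 with IFN-γ. PSMB8, PSMB9 and PSMB10 ranked 37, 40 and 41 untreated, at 4.42, 3.22 and 1.62 CPM per kb, and 18, 12 and 27 with IFN-γ, at 75.7, 96.1 and 36 CPM per kb. PSME1 ranked 15 untreated and 2 with IFN-γ, below PSMB6 alone. With both agents the catalytic genes ranked 25, 36 and 38, and PSME1 ranked 6. The 48 ranked genes include PSMA2 and PSMA3 at 0 and other members with exons inside the spans of other genes, so low ranks are uncertain. Of the 1626 exon bases used for PSMB10, 762 lay outside such spans.

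The share of PSMB8, PSMB9 and PSMB10 in the summed per-length level of the 6 catalytic genes was 1.63% ± 0.01 (SD, n = 2) untreated, 2.38% ± 0.12 with AX0085, 21% ± 0.42 with IFN-γ and 7.04% ± 0.083 with both. The share was higher with IFN-γ than in any other group by many times the spread, and an exact permutation test of 2 against 2 libraries cannot give a p under 0.333, so none is given. The size of the share depends on the length used. Without division by length it was 3.17%, 4.3%, 34.1% and 13.3% in the same order, and the order of the groups was the same. RNA shares are not shares of assembled protein.

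**Figure D3:**
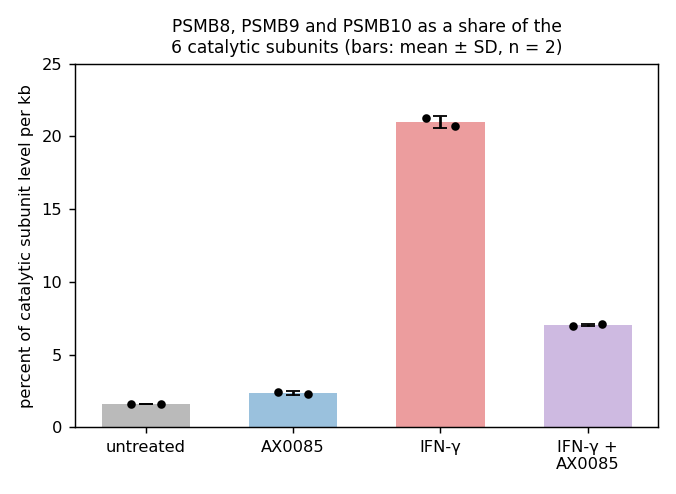
Share of PSMB8, PSMB9 and PSMB10 in the summed per-length RNA level of the 6 catalytic subunit genes (percent), with bars for the mean ± SD of 2 libraries and points for single libraries. The IFN-γ libraries are at 21.3% and 20.7% and the libraries with both agents at 6.98% and 7.1%.

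The matched pairs were not shifted alike. The per-length ratio of PSMB8 to PSMB5 was 0.0242 and 0.0245 untreated, 0.359 and 0.339 with IFN-γ, and 0.154 and 0.158 once AX0085 was added. The ratio of PSMB9 to PSMB6 was 0.0156 and 0.0137 untreated, 0.311 and 0.305 with IFN-γ, and 0.0497 and 0.0507 once AX0085 was added. The ratio of PSMB10 to PSMB7 went from 0.00903 and 0.0118 to 0.145 and 0.139 and then to 0.0301 and 0.0314. All 3 pairs had no overlap between these groups. Measured from untreated cells, the PSMB8 pair kept the most of its shift with AX0085. The ratios with AX0085 alone also differed from untreated. They were 0.0417 and 0.043 for PSMB8 to PSMB5, 0.012 and 0.0115 for PSMB9 to PSMB6, and 0.0225 and 0.0178 for PSMB10 to PSMB7. The shift kept therefore includes what AX0085 did without IFN-γ.

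Ratios between inducible genes separated AX0085 libraries from the rest. The per-length ratio of PSMB9 to PSMB8 was 0.775 and 0.686 untreated, 1.27 in each IFN-γ library, 0.297 and 0.296 with AX0085 and 0.425 and 0.428 with both. PSME2 per PSME1 was 0.52 and 0.505 untreated, 0.597 and 0.551 with IFN-γ, 0.35 and 0.346 with AX0085 and 0.3 and 0.29 with both. In both ratios each of the 4 libraries with AX0085 lay below each of the 4 without it. The genes of either pair are near neighbours in the genome, PSMB8 and PSMB9 on chromosome 6 and PSME1 and PSME2 on chromosome 14.

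PSMA8 stood apart from the rest of the alpha ring. It had 98.4 and 94 CPM untreated, 38.8 and 41.6 with AX0085, 23.6 and 21 with IFN-γ, and 22.6 and 25.3 when both were given. It fell with IFN-γ (log2 fold change -2.11, SE 0.09, adjusted p = 2.04e-10) and by 1.26 with AX0085 alone (SE 0.08, adjusted p = 5.59e-08), while AX0085 added to IFN-γ gave 0.10 (SE 0.09, adjusted p = 0.334). None of its exon bases lay inside the span of another gene, and no annotated pseudogene bears its name. Whether its count came from its own transcripts was not tested. The counts over 32 members left it out along with 5 members of large overlap.

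Several subunits with few or no counts have exons that lie within the spans of other annotated genes. PSMA2 and PSMA3, alpha subunits that the complex needs, had 0 counts and 100% of their exon bases inside other gene spans. PSMA6 had 10 counts over all libraries with 99.7% inside, and PSMD9 had 1 count with 99.1% inside. PSMB11, the thymus catalytic subunit, had 2 counts and no such overlap. TAP1 and TAP2, which carry peptides for MHC class I, were also listed at 0 in all libraries, and TAP1 lies inside the annotated span of PSMB9. A count of 0 for these genes is therefore not read as absent expression.

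Among members with enough counts to be tested, overlap was large for PSMC2 (90.8%), PSMA1 (81%), PSMC1 (76.1%), PSMC5 (61.9%), PSMD6 (60%) and PSMB10 (53.1%). PSMB10 shares 39.4% of its exon bases with exons of another gene on the same strand, so its level is uncertain, and how the counting treated shared bases is not given in the sources used here. For PSMB8, PSMB9, PSME1 and PSME2 the overlap was 17.3%, 5.21%, 0.507% and 19.6%. PSMB8-AS1, the antisense neighbour of PSMB8, had 0 counts. Of 44 annotated pseudogenes named after members, 14 had any count and 4 had over 100. PSMC1P1 had 1181 to 2167 counts per library, and PSME2P1 had 65 and 42 counts untreated and 206 and 271 with IFN-γ, as did PSME2P2 with 40 and 58 and then 182 and 180. These were small beside 11292 and 12271 counts of PSME2 with IFN-γ.

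**Figure D4:**
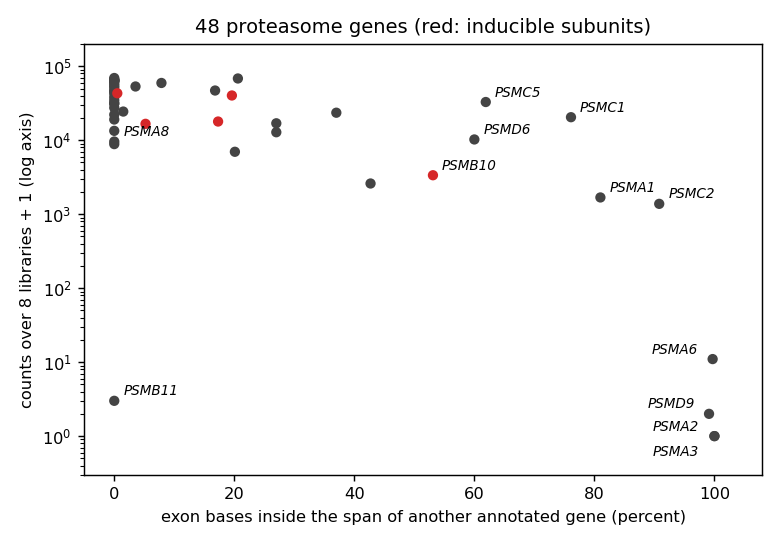
Counts over 8 libraries plus 1 (log axis) of the 48 proteasome genes against the percent of exon bases inside the span of another annotated gene, 1 point per gene with inducible subunits in red. PSMA2, PSMA3, PSMA6 and PSMD9, with 0, 0, 10 and 1 counts, all lie above 99%, and PSMB10 is at 53.1%.

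Other genes of the pathway were taken as lists by function. Of 14 genes that supply and load peptides, 11 were tested, and IFN-γ raised 4 past both thresholds (background 10.3%) and lowered 1 (background 17.2%). These were NLRC5, the activator of MHC class I genes (log2 fold change 4.71), B2M, the class I light chain (3.73), TAPBPL, a peptide editor (2.57), and ERAP1, a trimming peptidase (3.99-fold), while CALR, a loading chaperone, was lower (0.25-fold). AX0085 added to IFN-γ lowered 3 of the 11 (background 8.28%), NLRC5 (-3.04), B2M (-1.57) and TAPBPL (-1.47). Like PSMB8, PSMB9 and PSMB10, these 3 genes remained above untreated with both agents, at 1.68, 2.16 and 1.11. Of 9 genes of IFN-γ signalling, 7 were tested and 3 rose past both thresholds, against 10.3% of all genes. They were IRF8 (4.47), STAT2 (1.57) and IRF9. IRF8 had 16 and 12 counts untreated and 236 and 262 with IFN-γ, and it fell when AX0085 was added (-3.35). IRF9, with 3 and 1 counts untreated and 11 and 23 with IFN-γ, had too few counts outside the IFN-γ libraries and is given no fold. IRF1 and SOCS1 were at 0 in all libraries, which is likewise not read as absent expression.

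Partners of the proteasome moved little. Of 10 genes that bind or help assemble it, 6 rose (background 32.1%) and 2 fell (background 36.0%) by adjusted p with IFN-γ, and 8 fell when AX0085 was added (background 32.8%). POMP, the maturation factor of the 20S core, had -0.05 on the log2 scale with IFN-γ and -0.73 with AX0085 added. ADRM1, a ubiquitin receptor of the cap, had 0.75 and -0.76. Of 10 genes around NFE2L1, the factor that raises proteasome genes when proteolysis is short, 4 rose past both thresholds with IFN-γ (background 10.3%), MAFF (3.01), MAFK (1.93), NFE2L2 (1.58) and MAFG (1.25), and NFE2L1 itself rose by 0.79. With AX0085 added, MAFF (-5.96), MAFG (-1.42) and NFE2L2 (-1.12) fell past both thresholds (background 8.28%), and with AX0085 alone MAFF fell (-3.02). Of 13 genes that deliver ubiquitinated proteins, 12 were tested, and NUB1 (1.41) and SQSTM1 (1.22) rose past both thresholds with IFN-γ, a count of 2 that is near the background of 10.3%.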

How the data were processed

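RNA was read from 8 A549 libraries in 4 groups of 2, made with a TruSeq Stranded mRNA kit. Per the submitters' processing notes, the authors used bcl2fastq 2.20, Trim Galore 0.6.7, STAR 2.7.9a and featureCounts, and they deposited whole-number counts per gene for all libraries in 1 table. The strand setting, annotation release and handling of shared or multiply mapped reads are not given in the sources used here. All 8 columns matched a sample title.

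Groups and replicate numbers came from the titles. Genes were filtered with filterByExpr, which left 15066 genes and 43 of 46 members (PSMA6, PSMB11 and PSMD9 were left out), scaled by TMM and fitted with edgeR 4.0.16 in R 4.3.3 as 1 model of 4 groups, with a quasi-likelihood test and Benjamini-Hochberg adjustment over all genes. A gene was called where its adjusted p lay below 0.05 and its change exceeded 1 on the log2 scale, after the study's thresholds. Standard errors were taken from the fold change and its F value. The fit was tested on simulated data. Gene models were from GENCODE 44 (60463 of 60664 IDs matched) and promoter windows from RefSeq (GRCh38.p14). Replicates differed beyond sampling noise (chi-square per degree of freedom 9.499 to 31.58).

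Alternatives were DESeq2 1.42.0, other scalings and filters, the compared groups alone, a replicate block, leaving out each library, and other gene lengths. The text names in full the inducible subunits and their counterparts, other members past both thresholds, the 3 strongest rises and falls by adjusted p, the extremes of each role with IFN-γ, and up to 3 called genes of other lists. Further names, such as POMP and ADRM1, were added after values were seen. The members and lists were chosen with earlier results of these data known, and a few genes are not reported here.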

Additional observations from a re-analysis of the deposited data

Results flagged for a closer look

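The effect of AX0085 differed between cells with and without IFN-γ for 6 members, by the interaction term of the edgeR quasi-likelihood fit. In log2 units the term was -3.76 for PSMB10, -2.34 for PSMB9, -2.07 for PSMB8, -1.86 for PSME2, -1.46 for PSME1 and 1.36 for PSMA8, each past the adjusted p threshold and each over 1 in size. For PSMB10 the effect of AX0085 was 0.90 without IFN-γ and -2.86 with it, and for PSMB8 it was 0.44 and -1.63. For PSMB9 both effects were negative, -0.86 and -3.20. For PSMA8 the effect was -1.26 without IFN-γ and 0.10 with it.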

How the results depend on the processing

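With 2 libraries per group, the spread of each group rests on a single difference, and the depth puts the floor near 0.1 to 0.145 CPM, so PSMA6, PSMB11 and PSMD9 could not be tested. These counts may not separate genes whose spans overlap. PSMA3 had 0 counts although 0% of its exon bases lay in exons of another gene and 100% lay inside other gene spans. How reads were assigned to genes was not tested, nor was the cause of each shift below. All 5 inducible subunits kept their calls with IFN-γ and with AX0085 added under all alternatives run. Apart from the change of call rule, of 4085 alternative values of single genes 4076 kept their side of the call thresholds and 9 crossed them. The sign changed in 65 of them, all of members that had not passed the adjusted p and were at most 0.20 in size on the log2 scale, such as PSMB3 and PSMD13 with IFN-γ. Those that crossed lay near a log2 fold change of 1 and included PSMD12 with both agents (-1.004, no filter) and PSMC3 with AX0085 added (-1.005 under DESeq2 and under RLE factors).

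Other subunits called lower with AX0085 added numbered 2 under DESeq2 and 2 under RLE factors in place of 1, and those lower with both agents numbered 2 with no filter. By adjusted p alone the other subunits counted 20 higher and 10 lower with IFN-γ, 1 and 31 with AX0085 added, 0 and 29 with AX0085 alone, 13 and 5 for both agents against AX0085, 3 and 29 for both against untreated, and 5 and 8 for the interaction. Inducible subunits then counted 3 higher and 2 lower with AX0085 alone and 5 higher for both agents against AX0085. Alternatives to these counts, added after seeing the data, gave other subunits higher with AX0085 added as 0 under DESeq2 and RLE factors, 5 with total counts alone and 2 with at least 10 counts in every library. Those higher with AX0085 alone numbered 1 with at least 10 counts, and those lower with IFN-γ numbered 6 without PSMA8 and the 5 members of large overlap.

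Leaving out each library in turn gave 0 to 1 inducible subunits called higher with AX0085 alone, 3 to 4 with both agents against untreated, and 1 to 3 other subunits called lower with AX0085 added. By adjusted p alone it gave 19 to 24 other subunits higher and 7 to 10 lower with IFN-γ, 0 to 2 higher and 29 to 31 lower with AX0085 added, and 0 to 1 higher and 26 to 30 lower with AX0085 alone. The library that gave 3 was IFN-γ replicate 2. The ranges of the immunoproteasome share were 1.63% to 1.64% untreated, 2.3% to 2.46% with AX0085, 20.7% to 21.3% with IFN-γ and 6.98% to 7.1% with both.

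The share in the order untreated, AX0085, IFN-γ and both was 3.17%, 4.3%, 34.1% and 13.3% without division by length, 1.44%, 2.18%, 18.5% and 6.25% with the longest transcript, and, added after seeing the data, 2.14%, 3.39%, 25.6% and 8.86% with exon bases outside the spans of other genes.

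Same-numbered libraries did not deviate together (correlations -0.109 to 0.0873), so the numbers were not taken as pairs. With the replicate block the other subunits by adjusted p alone counted 19 higher and 10 lower with IFN-γ, 1 and 31 with AX0085 added and 0 and 30 with AX0085 alone, and no count past both thresholds changed. With the untreated numbers crossed, chosen after seeing the data, the block gave 21 and 10, 1 and 31, and 1 and 30.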

Other observations

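PSMG3, which works with PSMG4 in the first steps of 20S assembly, was the constitutive member that stayed furthest above untreated with both agents (0.58, SE 0.07, adjusted p = 1.62e-05, edgeR quasi-likelihood test), at 69.8 and 69.1 CPM against 46.2 and 46.8 CPM. By level per kb of exon it ranked 29 of the 48 genes untreated, 22 with IFN-γ and 18 with both agents. PSMB4 ranked 7 untreated and 15 with IFN-γ, where it fell while most other core subunits rose. PSMD12 was lower than untreated with either agent, at -0.49 with IFN-γ and -0.71 with AX0085, and was at -0.997 with both (SE 0.06, adjusted p = 1.09e-08).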
